A study of Mus musculus with 2 samples.

Results

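Col11a1 and Col11a2 encode alpha chains of type XI collagen. The data give the sites called as bound by the transcription factors Sox6 and Sox9 around both genes in mouse rib chondrocytes. The sites were chosen by position: all called peaks whose centre lay in a window on chromosome 3 from 113700000 to 113930000 for Col11a1, or on chromosome 17 from 34165000 to 34210000 for Col11a2 (mouse build mm9). These windows held 145 of the 102972 peaks of both lists. Of the 145 peaks, 114 lay in the Col11a1 window (104 Sox6 and 10 Sox9 peaks) and 31 in the Col11a2 window (28 Sox6 and 3 Sox9 peaks).

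Type XI collagen is a minor fibrillar collagen that co-assembles with type II collagen in the thin fibrils of cartilage and limits their diameter. Its trimer holds the products of Col11a1 and Col11a2 together with a chain made from Col2a1, the type II collagen gene. Loss of Col11a1 in mice carrying the cho mutation causes a severe chondrodysplasia. SOX9 is the HMG-box activator on which cartilage formation depends. SOX6 carries a related HMG box but no activation domain of its own, binds DNA as a dimer and raises SOX9-driven transcription of cartilage matrix genes. Enhancers of mouse Col11a2 that respond to SOX9 have been described.

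The Sox6 list came from 1 ChIP-seq sample, made with an anti-Sox6 antibody on untreated wild-type rib chondrocytes of ICR mice at postnatal day 1. A sample of input DNA from the same kind of cells, taken with no antibody, was made beside it; it has no peak list of its own. The rib cartilage was dissected so as to keep its proliferative and prehypertrophic parts and to leave out mature hypertrophic cartilage. The Sox9 list was called again by the authors, in the way the Sox6 peaks were, from earlier samples of mouse rib chondrocytes. The strain and age behind those samples were not known from the labels. Each factor thus has a single list without replicates. The lists hold positions alone, so there is no enrichment or depth behind a peak, and binding at a site says nothing here of how strongly the gene was expressed. A difference between the Sox6 and Sox9 lists cannot be told apart from a difference of antibody, animals, library or depth. No gene annotation of build mm9 was used, so peaks are placed by coordinates and not by exon, intron or promoter. By gene order in the RefSeq table of GRCm38.p6, Rnpc3 and Olfm3 are the protein-coding neighbours of Col11a1. Col11a2 lies between Rxrb and H2-Oa in the major histocompatibility complex, and which peaks of its window lie outside the gene was not determined.

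The promoters are shown because SOX factors are the proteins measured, and they are read from RefSeq (GRCm38.p6, plus strand, 250 bases before to 50 after the annotated start; both genes matched 1 entry). Their coordinates belong to that build and are not comparable with the mm9 positions of the peaks. Capitals mark matches to 4 short words on either strand, chosen with the sequences in view. ACAAT and ACAAAG are cores of SOX recognition sequences, and CCAAT and TATAAA are words known from promoters.
Col11a1, chr3:114030290-114030589: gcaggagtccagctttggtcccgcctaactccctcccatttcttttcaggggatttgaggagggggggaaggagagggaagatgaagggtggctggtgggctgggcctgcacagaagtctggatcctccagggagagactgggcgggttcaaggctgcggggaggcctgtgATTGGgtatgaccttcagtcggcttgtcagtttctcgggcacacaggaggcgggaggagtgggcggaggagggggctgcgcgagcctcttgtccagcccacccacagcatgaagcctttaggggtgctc
Col11a2, chr17:34038888-34039187: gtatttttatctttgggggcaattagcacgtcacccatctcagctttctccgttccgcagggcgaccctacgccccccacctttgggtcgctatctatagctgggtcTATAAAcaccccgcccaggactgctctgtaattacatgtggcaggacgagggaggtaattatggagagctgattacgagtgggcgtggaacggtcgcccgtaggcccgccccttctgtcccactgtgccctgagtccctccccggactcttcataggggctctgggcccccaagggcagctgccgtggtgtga

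Neither window of 300 bases held ACAAT or ACAAAG, which occurred in 42.9% of the 32851 promoters of the table. The Col11a1 promoter held CCAAT once, on the minus strand from -79 to -75 with the start base as 0, and the Col11a2 promoter held TATAAA once, from -143 to -138. CCAAT occurred in 37.4% and TATAAA in 13.6% of all promoters. G and C made up 62.3% of the Col11a1 promoter and 59% of the Col11a2 promoter, against a median of 52.7% over the table. These matches describe letters only, and whether a peak covers either promoter was not determined.

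Both loci were crowded with Sox6 peaks. The Col11a1 window of 230 kb held 4.52 Sox6 peaks per 10 kb, against 0.297 per 10 kb over the peak range of chromosome 3. The Col11a2 window of 45 kb held 6.22 per 10 kb, against 0.342 over chromosome 17. When each chromosome was cut into tiles as long as the window, 1 of 673 tiles on chromosome 3 (0.149%) had at least 104 Sox6 peaks, and the median tile had 3. That tile lay for 219117 of its 230000 bp in the Col11a1 window itself. On chromosome 17, 1 of 2048 tiles (0.0488%) reached 28 Sox6 peaks, with a median of 0, and it too lay mostly in the Col11a2 window (31626 of 45000 bp). The next fullest tiles held 94 peaks on chromosome 3 and 23 on chromosome 17, both outside the windows. With the grid moved so that its lines fell midway between the earlier ones, which splits both windows, the count was 0 in both cases. The fullest tile then held 95 peaks on chromosome 3, outside the window, and 24 on chromosome 17, partly inside it. Merged Sox6 peaks covered 9.15% of the Col11a1 window and 14.8% of the Col11a2 window, against 0.501% of chromosome 3 and 0.573% of chromosome 17.

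Sox9 peaks were also more frequent than on the rest of their chromosomes, but by less. The Col11a1 window had 0.435 Sox9 peaks per 10 kb, against 0.0890 over chromosome 3, and 27 of 673 tiles (4.01%) held 10 or more. In the Col11a2 window there were 0.667 per 10 kb, against 0.108 over chromosome 17, and 111 of 2048 tiles (5.42%) held 3 or more. There were 10.4 Sox6 peaks for each Sox9 peak in the Col11a1 window and 9.33 in the Col11a2 window, against 3.31 over the whole lists. This ratio depends on list length, 79107 Sox6 and 23865 Sox9 peaks. With the Sox6 list cut to its first 23865 places, the windows held 16 and 5 Sox6 peaks beside 10 and 3 Sox9 peaks. The windows were placed on the genes with earlier results of these data known, and no test of these densities was made.

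Sox9 met Sox6 at 7 sites of the Col11a1 window. Of its 10 Sox9 peaks, 7 shared 1 bp or more with a Sox6 peak (70%, exact binomial interval 34.8 to 93.3), against 76.7% of the whole Sox9 list. Distances along the locus are counted here from the centre of the Sox9 peak that comes first in the Sox9 list among those of the window, in the direction of rising coordinates. As the windows are defined, this is also the direction in which both genes are read. Places give the row of a peak in its list, 1 being the first. The order of the lists is not documented.

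The first-listed Sox9 site of the Col11a1 window lay at chr3:113731212-113731411, at place 737. It enclosed a Sox6 peak of 109 bp at place 6463, with the centres 1.5 bp apart. The second shared site lay 1.96 kb further, at chr3:113733164-113733374, where centres were 51.5 bp apart and the places were 23150 for Sox6 and 21559 for Sox9. The third lay 4.17 kb from the first, at chr3:113735371-113735582, with a Sox6 peak of only 48 bp (place 17730) inside the Sox9 peak (place 12575). Between the last 2 lay a Sox9 peak of 334 bp without Sox6 overlap, at chr3:113734586-113734919 (place 19874). The nearest Sox6 centre was 682 bp away. These 4 Sox9 peaks fell within 5 kb, and 3 of them were shared.

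The remaining shared sites of Col11a1 were spread over the next stretch of the window. At 37.4 kb, the Sox9 peak chr3:113768573-113768804 (place 15624) held a Sox6 peak of 130 bp at place 11197, with centres 15 bp apart. At 60.4 kb, a Sox6 peak at place 8790 overlapped the Sox9 peak chr3:113791568-113791765 at place 7433 by 125 bp. A second Sox9 peak followed 394 bp after it, at chr3:113792160-113792353 (place 7735), and met no Sox6 peak. At 71.1 kb, the Sox6 peak chr3:113802378-113802524, at place 3859 the first-listed Sox6 peak of either gene, enclosed a Sox9 peak of 112 bp at place 1347. Their centres were 1.5 bp apart. At 98.4 kb lay the last Sox9 peak of the window, chr3:113829647-113829761 (place 16653), around a Sox6 peak of 96 bp at place 11098 whose centre was 0.5 bp away. The 2 Sox9 peaks listed earliest in this window, at 0 and 71.1 kb, were both on Sox6 peaks, but the next, at place 4089, was not. Of the whole Sox9 list 76.7% were shared, so nothing is read from these few.

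The tenth Sox9 peak stood apart, at the low-coordinate end of the window. It lay at chr3:113702772-113702908 (place 4089), 28.5 kb before the first-listed one, and the nearest Sox6 centre, outside the window, was 8.79 kb away. Before the window, the last Sox6 peak outside (place 36499) was 5.95 kb and the last Sox9 peak 26.7 kb from its edge, and the first Sox6 peak inside was 29.8 kb from it. On the far side, the first Sox6 peak outside (place 5048) was 2.69 kb from the edge, whereas the next Sox9 peak was 801 kb away. The last Sox6 peak inside was 3.48 kb from that edge.

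**Figure D1:**
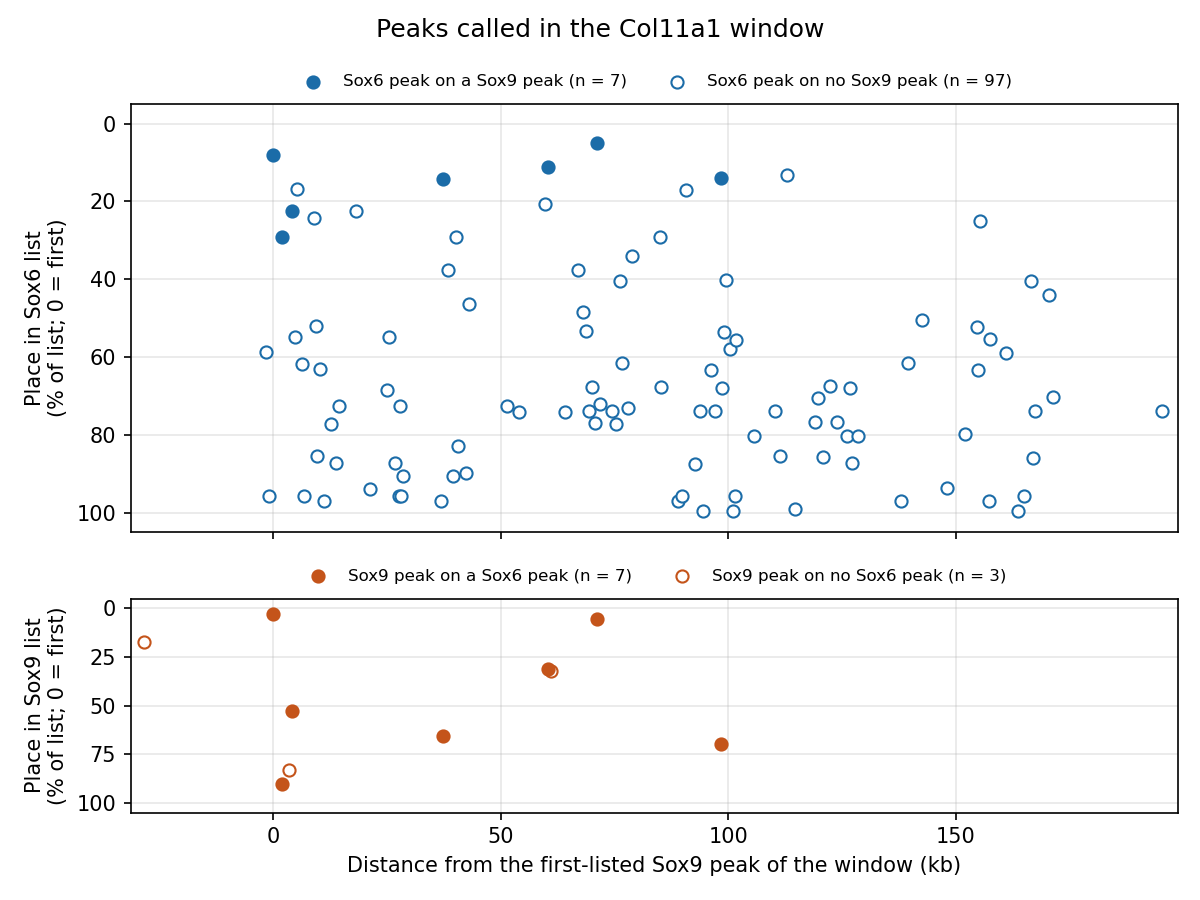
Peaks of the Col11a1 window by distance in kb from the first-listed Sox9 peak (horizontal) and by place in their own list in percent (vertical, first at the top), Sox6 above and Sox9 below; filled points overlap the other factor. The 7 filled Sox6 points all lie in the upper part of the panel, and no Sox9 point lies beyond 98.4 kb while Sox6 points go on to 195 kb.

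Sox6 peaks went on beyond the last Sox9 peak of the Col11a1 window. From 1.48 kb before the first-listed Sox9 peak to 171 kb beyond it, 103 Sox6 peaks followed each other with no gap over 10 kb, from 113729632 to 113902839. This run took in 9 Sox9 peaks and the 7 shared sites. A further Sox6 peak lay after a gap of 23.6 kb, at 195 kb. Beyond the last Sox9 peak there were 40 Sox6 peaks over 96.7 kb with no Sox9 peak among them. Of these 40, 2 were in the first 23865 places of the Sox6 list, which is the length of the Sox9 list. Those places held 30.2% of the whole Sox6 list. Up to the last Sox9 peak there were 64 Sox6 peaks, of which 14 were that early and 7 were shared. The split was drawn at the last Sox9 peak, so the 7 shared peaks, all early, fall before it by construction. Nothing is therefore read from the difference between these counts.

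Some Sox6 peaks without Sox9 were listed early. In the Col11a1 window 9 of the 16 Sox6 peaks within the first 23865 places had no Sox9 overlap. Over the whole list 11967 of the 23865 Sox6 peaks in those places had none, so such peaks were not particular to this locus. Of the 9, 1 had a Sox9 centre within 1000 bp. The median distance of the 9 to a Sox9 centre was 7768 bp, and the largest was 56.9 kb, with no whole-list value beside them. The earliest of them, at place 10346, was a call of only 13 bp, chr3:113844127-113844139, at 113 kb and 14.4 kb from the nearest Sox9 centre. The next was chr3:113736557-113736652 at place 13284, 5.29 kb from the first-listed Sox9 peak and 1.13 kb from the nearest Sox9 centre. At 155 kb, deep in the stretch without Sox9, the peak chr3:113886551-113886709 stood at place 19884, between neighbours at places 50080 and 76713.

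In the Col11a2 window 2 of the 3 Sox9 peaks lay on Sox6 (66.7%, exact binomial interval 9.43 to 99.2), again beside 76.7% of the whole list. The first-listed, chr17:34175405-34175636 at place 5427, enclosed a Sox6 peak of 130 bp at place 6847, which is the first-listed Sox6 peak of this window. The other, 14.2 kb further at chr17:34189654-34189833 (place 13448), enclosed the Sox6 peak of 143 bp at place 8346, with centres 3.5 bp apart. The Sox9 peak without overlap lay 6.96 kb before the first, at chr17:34168450-34168680 (place 20755). A Sox6 peak of 55 bp at place 11905 had its centre 428 bp from it. A Sox6 centre lay within 1000 bp of 9 of the 10 Sox9 peaks of Col11a1 and of all 3 of Col11a2, near the 90.4% of the whole Sox9 list. Over both genes, the 9 shared Sox9 peaks had a Sox6 centre at a median of 15 bp (range 0.5 to 51.5), against 40.5 bp for all shared Sox9 peaks. The Sox6 partners of the 9 were all in the first 23865 places, whereas the 40.5 bp covers partners from the whole list. With so few peaks, nothing is read from this difference.

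Beyond its last Sox9 peak the Col11a2 window went on with Sox6 alone, as the Col11a1 window did. There were 18 Sox6 peaks over 14.9 kb, from 34193807 to 34208703, and 1 of them was in the first 23865 places. Those places held 30.2% of the whole Sox6 list. Here too the split was drawn at the last Sox9 peak, so nothing is read from this count. The 1 early peak was chr17:34205970-34206128 at place 6908, the second Sox6 peak of the window by list order. It lay 30.5 kb from the first-listed Sox9 peak and 16.3 kb from any Sox9 centre. The fifth by list order, at place 15090 and chr17:34184647-34184822, lay 5.01 kb from a Sox9 centre. The lower edge of this window cut through a Sox6 call of 307 bp, whose centre was 73.5 bp outside, and the first centre inside was 3.99 kb from the edge. At the far edge the last Sox6 centre inside was 1.44 kb and the first outside 2.43 kb away. The nearest Sox9 centres outside were 72.2 kb before and 46.2 kb after the window.

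**Figure D2:**
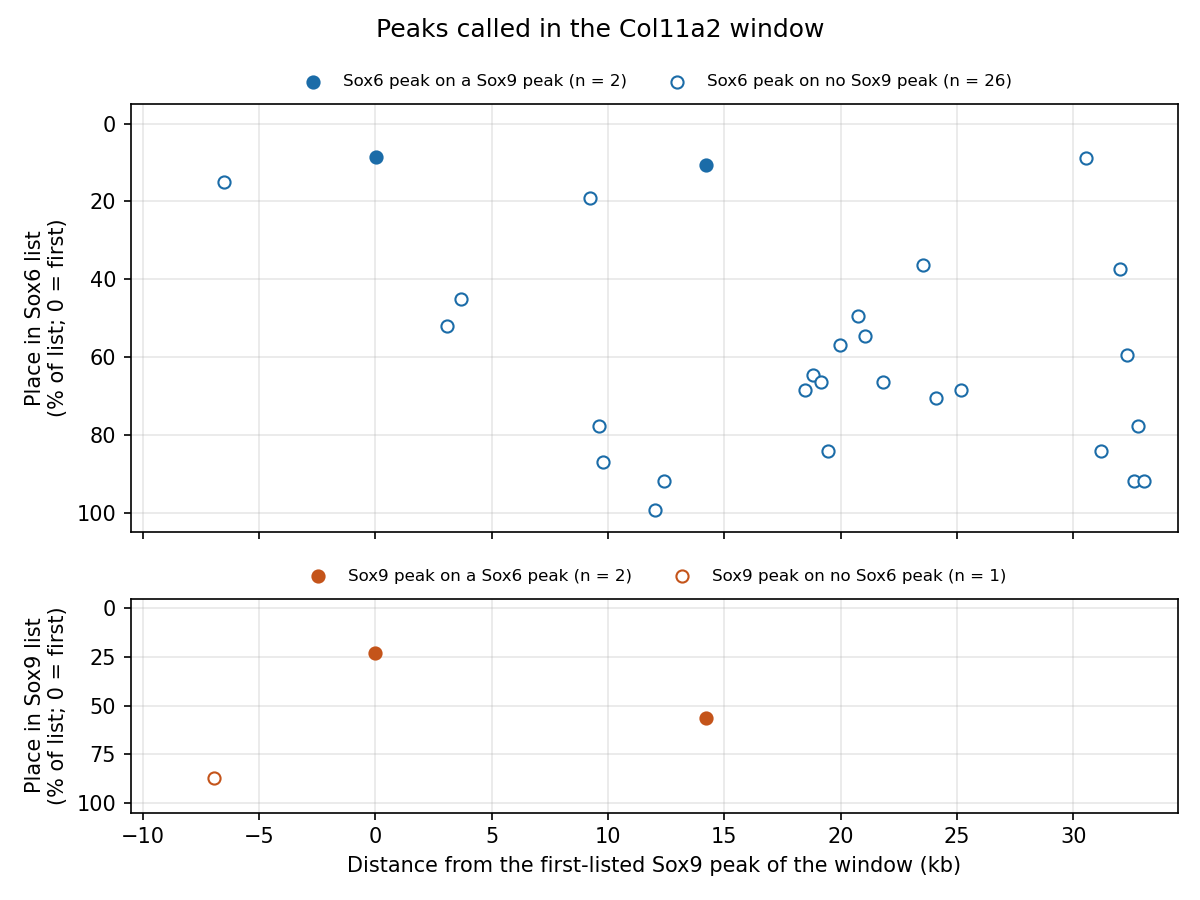
Peaks of the Col11a2 window by distance in kb from the first-listed Sox9 peak (horizontal) and by place in their own list in percent (vertical, first at the top), Sox6 above and Sox9 below; filled points overlap the other factor. The 2 filled Sox6 points lie at 0.034 and 14.2 kb near the top, and the 18 Sox6 points beyond 18 kb have no Sox9 point beneath them.

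Seen from Sox6, few peaks of either gene met Sox9. In the Col11a1 window 7 of 104 Sox6 peaks overlapped a Sox9 peak (6.73%, exact binomial interval 2.75 to 13.4), and in the Col11a2 window 2 of 28 (7.14%, 0.877 to 23.5), against 23.1% of the whole Sox6 list. With 10 and 3 Sox9 peaks beside 104 and 28 Sox6 peaks, a high share was not possible in either window. The shares for the 2 genes lie within each other's intervals. The difference between the genes was not tested, because peaks of 1 locus are not independent and there is 1 list per factor.

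The shared sites were all early in the Sox6 list. The 9 shared Sox6 peaks of both genes stood at places 3859 to 23150. Of the 18237 shared Sox6 peaks of the whole list, 11898 were in the first 23865 places. Within the first 23865 places, 7 of 16 Sox6 peaks of Col11a1 (43.8%, exact binomial interval 19.8 to 70.1) and 2 of 5 of Col11a2 (40%, 5.27 to 85.3) were shared, close to the 49.9% of all Sox6 peaks in those places. Among the remaining places, 0 of 88 Sox6 peaks of Col11a1 and 0 of 23 of Col11a2 met Sox9. Over the whole list 11.5% of the Sox6 peaks in those places met Sox9. Only 3 Sox9 peaks of Col11a1 and 1 of Col11a2 were not already on an early Sox6 peak. The late shares were therefore bound to be low, and nothing is read from their distance to the whole list. Intervals cover counting error only and treat neighbouring peaks as independent. Looking at the remaining places separately was decided after the values were seen.

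**Figure D3:**
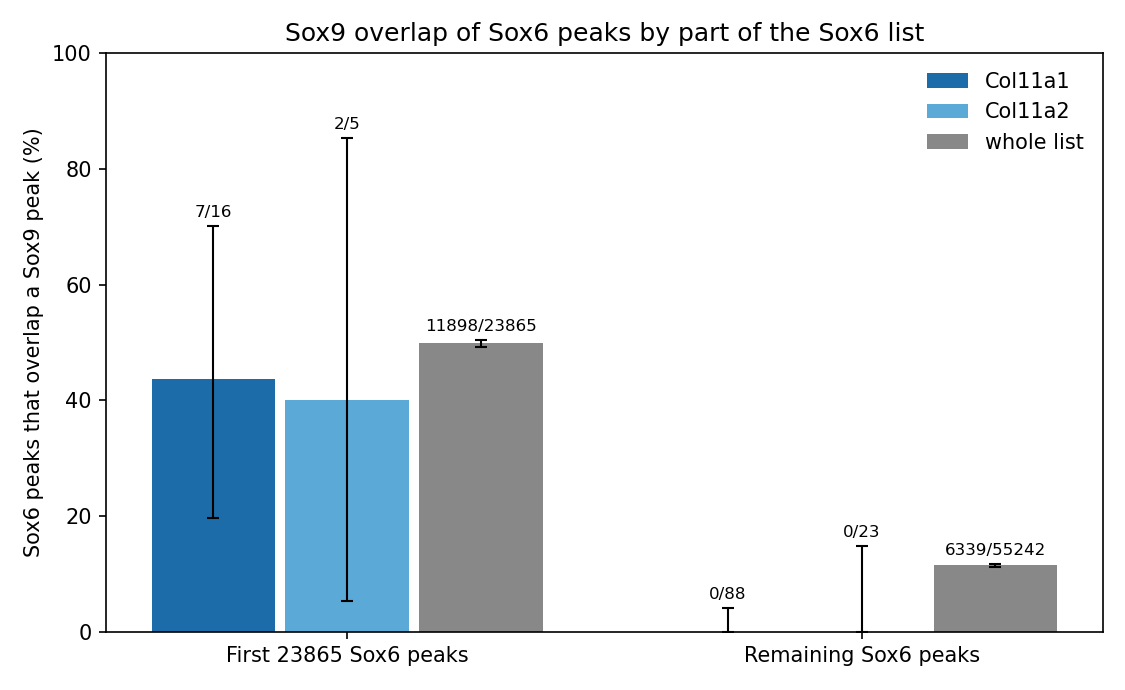
Percent of Sox6 peaks that overlap a Sox9 peak in the Col11a1 window, the Col11a2 window and the whole Sox6 list, for the first 23865 places and for the remaining places; bars give the share, error bars the 95% exact binomial interval and labels the counts. In the first part the bars stand at 43.8%, 40% and 49.9%, and in the rest at 0, 0 and 11.5%, where only 3 and 1 Sox9 peaks of the windows were left to be met.

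Most Sox6 peaks of both genes stood late in the list. The median place was at 72.3% of the list for Col11a1 and 65.5% for Col11a2. The share in the first 23865 places was 15.4% for Col11a1 and 17.9% for Col11a2, against 30.2% for the whole list. The median Sox9 places were at 42.6% for Col11a1 and 56.4% for Col11a2. Late-listed calls thus made up 84.6% of the Sox6 peaks of Col11a1 and 82.1% of those of Col11a2, against 69.8% of the whole list. The calls that met Sox9 were early ones, as were most of those that met it in the whole list. Early-listed calls were crowded too: 16 in the 230 kb of Col11a1, against 1362 over 154916219 bp of chromosome 3. In the 45 kb of Col11a2 there were 5, against 998 over 92181118 bp of chromosome 17.

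The Sox6 peaks of both genes were wide, and those of Col11a2 ran into each other. Median widths were 178 bp for Col11a1 and 271.5 bp for Col11a2, against 151 bp for the whole list. Peaks wider than 300 bp made up 26 of 104 in the Col11a1 window (25%) and 12 of 28 in the Col11a2 window (42.9%), against 8.36% of the whole list. The widest were 486 bp for Col11a1 and 487 bp for Col11a2. The shared Sox6 peaks were 48 to 147 bp wide for Col11a1 and 130 and 143 bp for Col11a2. Within the first 23865 places, the 9 Sox6 peaks of Col11a1 and the 3 of Col11a2 without Sox9 both had a median of 159 bp. For such peaks of the whole list the median was 141 bp. The wide calls stood among the remaining places, where medians were 191.5 bp for Col11a1 and 301 bp for Col11a2, against 155 bp for the whole list. Calls under 50 bp numbered 5 of 104 for Col11a1 (4.81%) and 0 of 28 for Col11a2, against 2.74% of the whole list. The shortest was 4 bp (chr3:113738008-113738011, place 75773).

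Sox6 peaks that overlap another Sox6 peak numbered 12 of 28 in the Col11a2 window and 3 of 104 in the Col11a1 window (42.9% and 2.88%), against 1.41% of the whole list. Those of Col11a2 formed 4 runs. A run of 4 peaks covered 1425 bp from 34193807 to 34195231, a second run of 4 covered 956 bp from 34207748 to 34208703, and 2 runs of 2 peaks covered 707 and 466 bp. The longest merged run in the whole list held 5 peaks. In the Col11a1 window the 3 overlapping peaks made 1 run of 859 bp from 113758689 to 113759547. All peaks of these runs stood at places 39056 to 75775, and none overlapped a Sox9 peak. Beyond the first 23865 places, 11.5% of the Sox6 peaks of the whole list met Sox9. No late-listed Sox6 peak of either window did, so nothing is read from this absence. With overlapping peaks merged, the windows held 102 Sox6 peaks for Col11a1 and 20 for Col11a2.

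**Figure D4:**
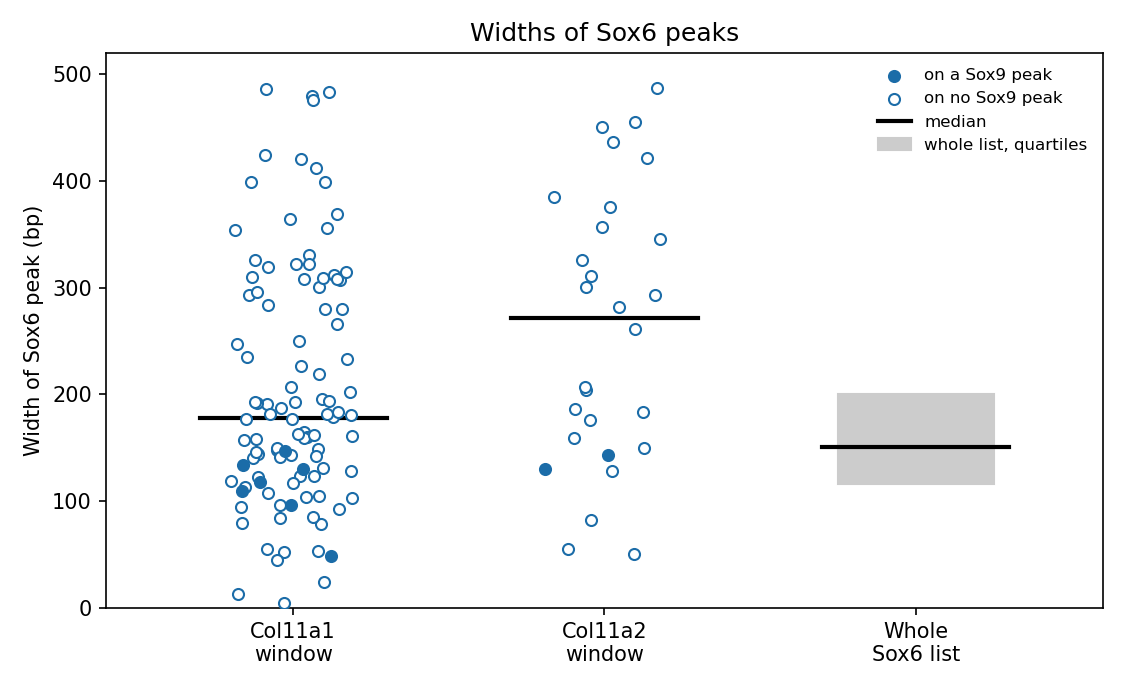
Widths in bp of the Sox6 peaks of the Col11a1 and Col11a2 windows (points; filled where the peak overlaps a Sox9 peak; sideways spread only separates points), with the median as a line, beside the median and quartiles of the whole Sox6 list. The filled points lie between 48 and 147 bp, and the medians are 178, 271.5 and 151 bp.

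The loci were alike in outline. In each, the first-listed Sox9 peak lay on a Sox6 peak, 1.48 kb from the first Sox6 peak of the run for Col11a1 and 6.53 kb for Col11a2. In each, Sox9 peaks ended part of the way along that run, and a stretch of Sox6 peaks alone followed. Of the whole Sox9 list 76.7% lay on Sox6 peaks. The stretch is drawn at the last Sox9 peak, so it holds Sox6 alone by construction. With 104 Sox6 beside 10 Sox9 peaks, and 28 beside 3, nothing is read from this likeness. The loci differed in the overlap among Sox6 peaks, 42.9% for Col11a2 and 2.88% for Col11a1. Shared sites numbered 2 for Col11a2 and 7 for Col11a1, in windows of 45 and 230 kb. As shares of the Sox9 peaks they were close, 66.7% and 70%. None of these values has a replicate behind it.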

How the data were processed

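The data are 2 peak lists, Sox6 (1 ChIP sample) and Sox9, deposited by the authors as chromosome, start and end, with no score, signal or count. Bowtie and build mm9 are named per the submitters' processing notes; versions, peak caller and threshold are not stated there. The Sox9 list is a re-analysis of earlier samples, per the series' design text, and its build was taken as the same. Depth is unknown. Starts were read as BED starts and are printed counted from 1.

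Members were peaks with their centre in 2 fixed windows. The members, lists and alternatives were chosen with earlier results of these data known. Overlap meant at least 1 bp. Intervals are exact binomial (Clopper-Pearson, 95%). Background values cover the whole list or non-overlapping tiles of the window's length over the peak range of the same chromosome. Peaks described singly were every Sox9 peak, the first 5 Sox6 peaks of each window by list place, the widest Sox6 peaks and those at window edges; others were named after their values were seen. Code (Python 3.11.15, pandas 2.3.3, scipy 1.17.1) was tested on simulated data. The input sample has no list and entered no comparison.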

Additional observations from a re-analysis of the deposited data

How the results depend on the processing

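Of 52 values recomputed under other settings, leaving aside the 6 added after seeing the data, 36 stayed within 1.5 times the reported count or median, or within the interval of the reported share. With the first 50% of each list, Sox6 peaks numbered 25 for Col11a1 and 9 for Col11a2, Sox9 peaks 5 and 1, and the Sox9 share of Col11a2 was 100% (1 of 1). With equal list lengths, Sox6 peaks numbered 16 and 5, of which 43.8% and 40% were shared; fewer peaks enter by construction. Beyond that length, an alternative added after seeing the data, the shares were 0 and 0. Where peaks up to 1000 bp apart counted as shared, 18.3% of the Sox6 peaks of Col11a1 and 100% of the Sox9 peaks of Col11a2 met the other factor. By width in place of list order, median ranks were at 33.8% (Col11a1) and 11.1% (Col11a2) for Sox6, widest first, and 26.6% for Sox9 of Col11a2; the cause was not tested. From edge to edge the median distance of Sox9 to Sox6 was 0 bp at both genes, since most pairs overlap. With the tile grid moved, also added later, 0 tiles matched the Sox6 count of either window. Without read counts, depth cannot be weighed, and no replicate exists to set an error on any count.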
